A study of Ovis aries with 4 samples.

Results

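Genes that carry the response of ovarian cells to gonadotropins were followed through maps of N6-methyladenosine (m6A), a methylation of adenosines inside messenger RNA that is bound by proteins acting on the fate of the transcript. The 7 members were the receptor gene FSHR, the cAMP and protein kinase A genes PDE4D and PRKAR2B, the progesterone-related gene PGRMC2, the transcription factor gene CEBPB, and the prostaglandin genes PTGIS and PTGFR. They were taken by gene name from the 2 deposited peak lists, which gave 7 of 5261 genes with a peak, 1 of 3656 aged peaks and 7 of 4378 young peaks. The ovaries came from Cele black sheep aged 5 to 6 years, called aged, and 1 to 2 years, called young. At each age RNA fragments were immunoprecipitated with an antibody against m6A and sequenced beside an input without antibody, which gave 4 samples and 1 peak list per age. The labels name no genotype, treatment, cycle stage or number of animals for either age, and they do not say whether a sample pooled animals. A peak marks where the immunoprecipitate held more of a transcript than the input did. The fold enrichment, p and adjusted p of a peak are the authors' own values. With 1 list per age no difference had a replicate check and no p across ages was computed, and intervals cover counting error only. The input libraries were not analysed here, so the abundance of the transcripts behind a peak is unknown, and the depth is not given in the sources used here.

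Follicle-stimulating hormone binds its receptor on granulosa cells and, through a stimulatory G protein, raises cAMP, which activates protein kinase A. Phosphodiesterases break cAMP down and so set how long the signal lasts. After the luteinizing hormone surge the same route induces progesterone receptor, C/EBP transcription factors and the enzymes of prostaglandin synthesis, which act in ovulation and luteinization. In sheep, prostaglandin F2-alpha from the uterus ends the life of the corpus luteum through its receptor on luteal cells.

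Some marker genes of the cell types in which these genes act had listed peaks at both ages, and others had none. A peak was listed for 3 aged and 4 young genes of 10 granulosa cell markers, and for 3 aged and 4 young genes of 9 theca and luteal markers. Oocyte markers gave 5 aged and 3 young genes of 14, and stromal fibroblast markers 3 aged and 6 young genes of 9. The corresponding numbers were 5 and 4 of 9 for endothelial cells, 2 and 4 of 8 for smooth muscle and pericytes, 2 and 6 of 8 for macrophages, and 2 and 3 of 7 for surface epithelium. Over all genes, 3086 had an aged and 3846 a young peak, so a young excess in such counts is not particular to a cell type. The marker counts are small, and no difference between the ages is read from them. FSHR itself is among the granulosa markers and PTGFR among the luteal ones. In whole ovary, fewer cells of a type and less RNA per cell cannot be told apart. A gene with no listed peak was not shown to lack expression or the mark. The part of cell composition in any result below was not tested.

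FSHR, the receptor gene of follicle-stimulating hormone, was the single member with a peak in both lists, a class that held 31.8% of all genes with a peak. Its aged peak lay on the plus strand of chromosome 3 (75557521 to 75557720) and had a fold of 2.54 and a log10 p of -14.3, with an adjusted p of 2.00e-13. Its young peak (75557571 to 75557720) had a fold of 1.60 and a log10 p of -13.1, with an adjusted p of 1.26e-13. The peaks shared 150 bases, which is 75% of the aged and 100% of the young peak, and the aged peak began 50 bases further upstream. Both carried the label stop codon and ended on the same base, the last base of FSHR in the gene table.

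Within its own list the FSHR peak stood at different heights. The aged peak was at percentile 86.1 of its list by fold and 93.3 by log10 p, so it was among the stronger aged peaks on either scale. The young peak was at percentile 9.86 by fold and 36.2 by log10 p, close to the lowest fold of 1.5 that the lists hold. The log10 p values themselves, -14.3 aged and -13.1 young, differed little. The list medians of log10 p were -6.22 in the aged and -15.3 in the young list. The gap between the log10 p percentiles thus goes with the lists as a whole and is not read as a trait of FSHR. Over 1515 overlapping pairs of peaks in the same gene, the aged fold was the higher one in 641 pairs (42.3%). In 175 genes, FSHR among them, the aged and the young peak both reached the final base of the gene, and 174 of these pairs were labelled stop codon in both lists. The aged fold was higher in 92 of the 175 pairs (52.6%), with a median of 1.95 in the aged and 1.89 in the young list, and it was at least 2.54 in 28 of them. A higher aged fold was thus common among such pairs in direction, while the size of the difference was not compared. Whether a fold means the same in both lists is unknown without the depth, so the FSHR folds are given side by side and no change is read from them.

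The other 6 genes had 1 young peak each and no aged peak. Of all 5261 genes with a peak, 26.9% were listed in the aged list only, 41.3% in the young list only and 31.8% in both. Of the genes in the young list, 56.6% had no aged peak, so the absence of an aged peak was the more frequent state of a young gene. The 7 genes were picked with these lists known, so the count of 6 in 7 describes the choice and nothing is read from it. No aged peak lay anywhere inside the 6 genes on either strand. The nearest aged peak was 95.5 kb from the CEBPB peak, in UBE2V1 on the other strand. It was 244.9 kb away for PTGIS, 334.8 kb for PRKAR2B, 597.9 kb for PTGFR, 1692.9 kb for PDE4D and 4444.7 kb for PGRMC2. No aged peak at these positions was listed under the name of another gene.

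Of the cAMP genes, PDE4D encodes a phosphodiesterase that degrades cAMP in granulosa cells. Its young peak lay on the plus strand of chromosome 16 (20520699 to 20520898), was labelled 3' UTR and had a fold of 3.75, which placed it 130th of the 4378 young peaks. Its log10 p was -11.9 and its adjusted p 3.16e-11, which is percentile 28.3 of the young list by log10 p against 96.9 by fold. PRKAR2B encodes a type II regulatory subunit that holds protein kinase A inactive until cAMP binds it. Its young peak, on the plus strand of chromosome 4 (49774260 to 49774408) and labelled 3' UTR, had a fold of 1.67, a log10 p of -6.37 and an adjusted p of 7.41e-06. It was weak on both scales, at percentile 16.2 of the young list by fold and 4.47 by log10 p.

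PGRMC2 encodes a haem-binding membrane protein of the progesterone receptor component family. Its young peak on chromosome 17 (29723763 to 29723912, plus strand, 3' UTR) had a fold of 2.82 with a log10 p of -13.5 and an adjusted p of 6.31e-14. That placed it at percentile 84.8 by fold and 38.6 by log10 p. CEBPB encodes a transcription factor that, in mice, granulosa cells need for luteinization. Its young peak on chromosome 13 (78228550 to 78228746, plus strand, 3' UTR) had a fold of 6.00, the 8th highest of the young list, but a log10 p of only -9.37 and an adjusted p of 8.71e-09. By log10 p it stood at percentile 13.5. CEBPB was thus the member with the widest gap between the scales.

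PTGIS encodes prostacyclin synthase, which turns prostaglandin H2 into prostacyclin. It was the only minus-strand member. Its young peak on chromosome 13 (77587610 to 77587858, 3' UTR) had a fold of 5.29, the 13th highest, with a log10 p of -17.3 and an adjusted p of 1.26e-17. PTGIS was also the only member above the young median on both scales, at percentile 99.7 by fold and 59.5 by log10 p. PTGFR encodes the receptor of prostaglandin F2-alpha. Its young peak on chromosome 1 (55003709 to 55003858, plus strand, 3' UTR) had a fold of 1.83, a log10 p of -5.06 and an adjusted p of 0.000145. PTGFR had the weakest log10 p of the members, at percentile 2.52 of the young list, and stood at percentile 31.3 by fold.

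Across the 7 young peaks the folds ranged between 1.60 and 6.00 with a median of 2.82, against 2.05 over the young list. Their median log10 p was -11.9, against -15.3 over the list. By fold 4 of the 7 lay above the list median, and by log10 p 6 of the 7 were less significant than the list median. The 7 genes were chosen with their folds known, CEBPB and PTGIS among the highest of the young list, so these medians and counts describe the choice and nothing is read from them. Among the 43 young peaks in the top 1% by fold, which had folds of at least 4.57, the median log10 p was -16.0 and 6 were less significant than CEBPB. A high fold with a modest p was thus not confined to CEBPB. Of the 43 genes with such a peak, 20 (46.5%) had no aged peak, against 56.6% of all genes in the young list.

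**Figure D1:**
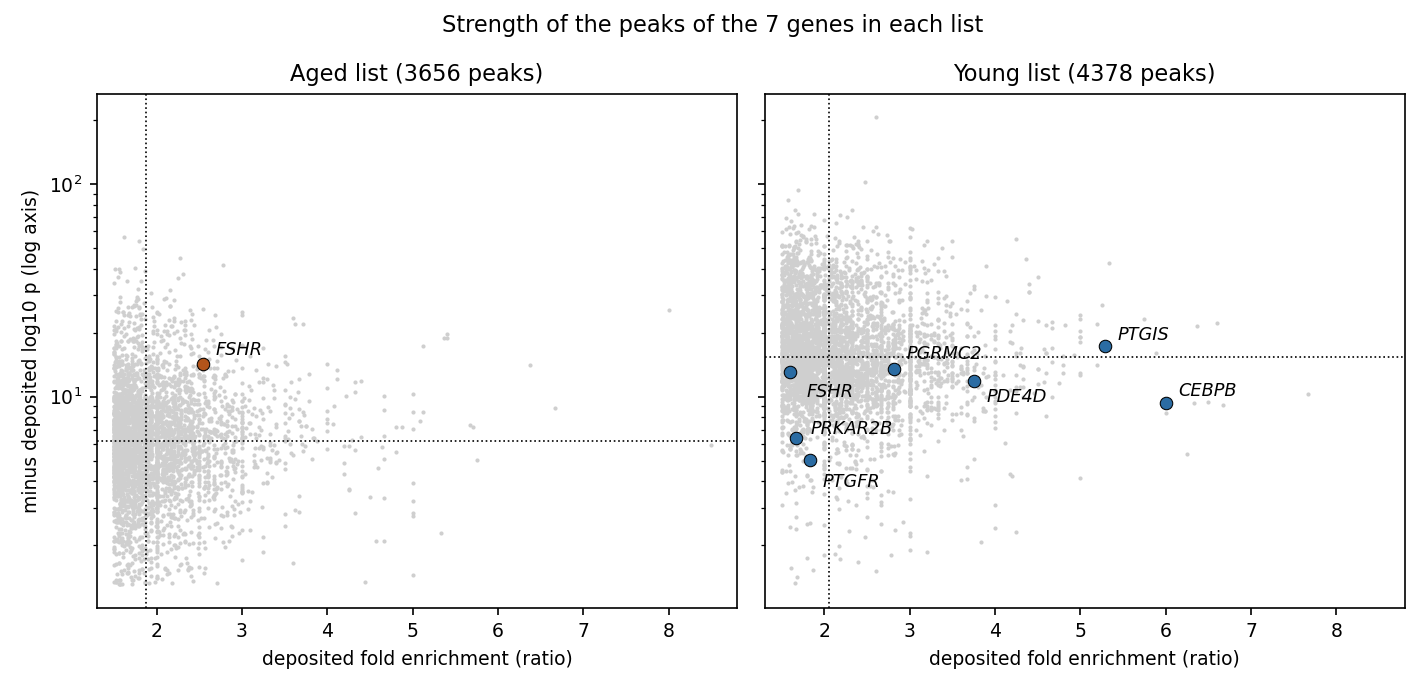
Each grey point is a peak of the aged list (left) or the young list (right), with the deposited fold enrichment on the horizontal axis and minus the deposited log10 p on a logarithmic vertical axis. Coloured points are the peaks of the 7 genes and dotted lines the list medians. FSHR, with a fold of 2.54, is the only member in the aged panel, and CEBPB (6.00) and PTGIS (5.29) stand at the right of the young panel.

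The 8 peaks lay near the 3' ends of their genes. Measured to the end of the gene in the gene table, both FSHR peaks ended at 0 bases. The CEBPB peak ended 147 bases before it, PGRMC2 947, PTGFR 1295, PRKAR2B 1483, PTGIS 2487 and PDE4D 2789 bases. Of 2017 young peaks labelled 3' UTR with a gene end in the table, the quartiles were 239, 991 and 2870 bases, so 5 of the 6 distances, all but that of CEBPB, lay between the outer quartiles. The genes themselves were of very different lengths, 1.9 kb for CEBPB and 1582.8 kb for PDE4D at the extremes, against a median of 26.7 kb for genes with a young peak. The width of each peak equalled its span, so none crossed an intron, which held for 77.5% of aged and 83.1% of young peaks. Each gene had a single peak per list, as did 84.9% of aged and 87.9% of young genes.

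The labels split the members by class. FSHR was labelled stop codon in both lists, a label on 15.3% of aged and 41.3% of young peaks, and on 27.5% of aged and 43.1% of young plus-strand peaks. The 6 young-only members were all labelled 3' UTR, as were 66.4% of aged and 47.3% of young peaks. The label stop codon is not read here as the place of the stop codon. On the plus strand, 64.2% of aged and 70.6% of young peaks with this label stopped exactly on the final base of the gene, as the FSHR peaks did.

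**Figure D2:**
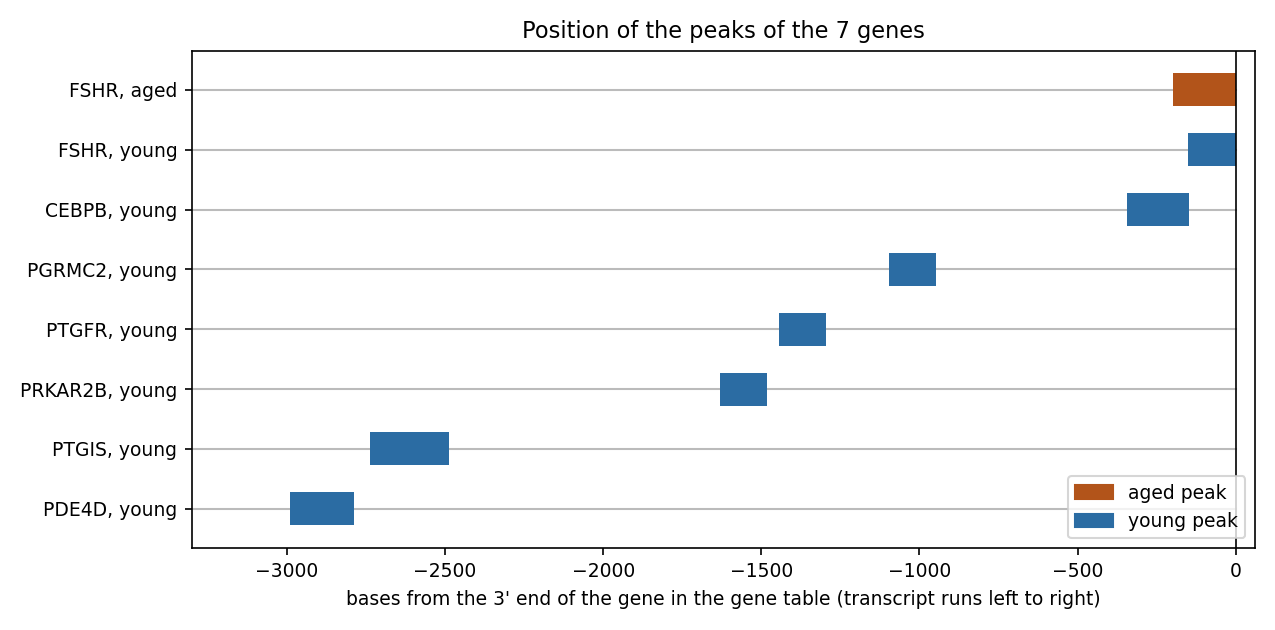
Bars show the extent of each peak of the 7 genes in bases from the 3' end of its gene in the gene table, with the aged peak of FSHR above its young peak. Both FSHR peaks reach the gene end, and the 3' UTR peaks end between 147 bases (CEBPB) and 2789 bases (PDE4D) before it.

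Young genes without an aged peak made up 52.0% or more of every class of strength of the young peak. The 3846 young genes were ranked by their highest fold and put in 5 classes of 769 or 770 genes. Without an aged peak were 62.3% (Wilson 95% interval 58.9 to 65.7) of the weakest class, which holds FSHR and PRKAR2B, and 57.1% (53.6 to 60.5) of the next, which holds PTGFR. In the strongest class, with PDE4D, PGRMC2, PTGIS and CEBPB, the share was 52.0% (48.5 to 55.5). By the log10 p of the same peaks the share was 58.1% (54.5 to 61.5) in the least significant class, with PTGFR, PRKAR2B and CEBPB, and 62.5% (59.1 to 65.9) in the most significant one, which holds no member. In between, the class of FSHR, PDE4D and PGRMC2 gave 52.7% (49.1 to 56.2) and that of PTGIS 52.4% (48.9 to 55.9). High young folds, as in CEBPB and PTGIS, thus did not go with absence from the aged list more often than low ones.

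**Figure D3:**
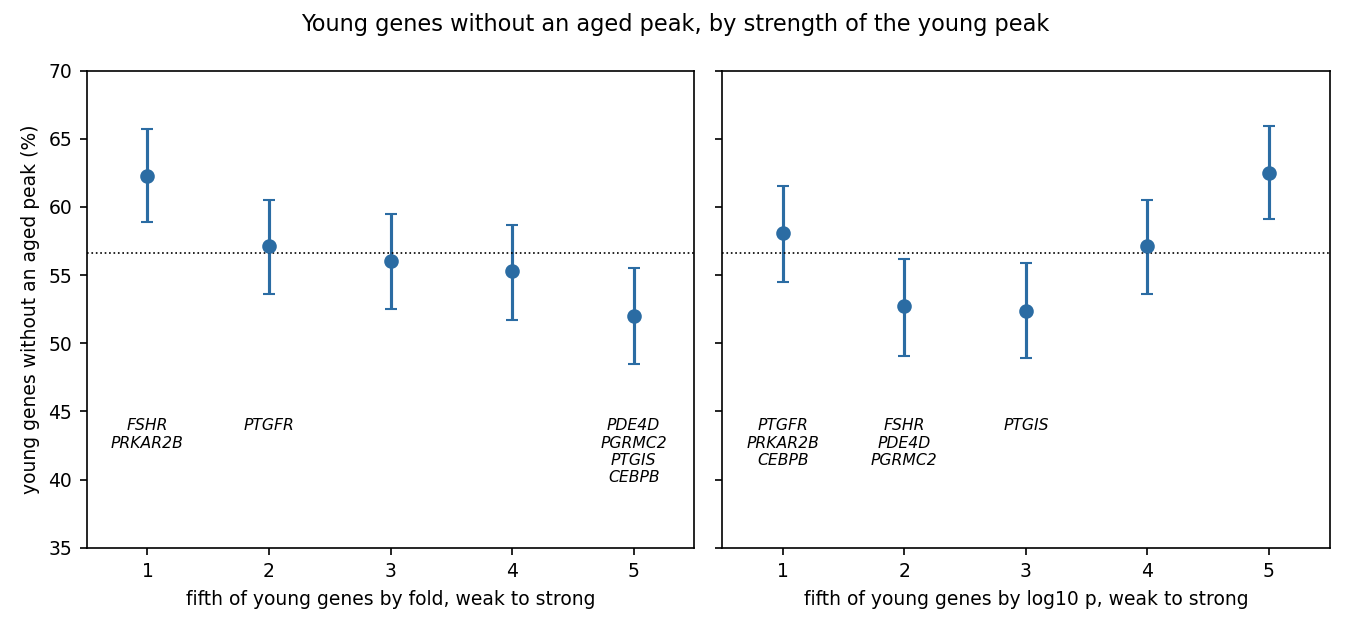
Points give the share of young genes without an aged peak in 5 classes of the young genes, ranked by the highest fold (left) and by the log10 p of that peak (right), with Wilson 95% intervals, and the dotted line is the share over all young genes (56.6%). Names below the points are the members in that class, and the class shares lie between 52.0% and 62.5%.

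The wider pathways were described with 149 genes, the 7 among them, in 9 groups by role. The gene table holds 143 of the 149 names. It holds 13 of 16 in prostaglandin metabolism, 7 of 8 gonadotropin hormones and receptors, 15 of 16 phosphodiesterases and 10 of 11 progesterone genes. For a name that it lacks, the absence of a peak may be a failed match of names. The share of all genes in the gene table that had a peak is not given here. Counts of pathway genes with a peak, here and below, are thus not read as high or low. Of the 142 other genes, 38 had a peak. Of these 10 were aged-only, or 26.3% (15.0 to 42.0), 13 were young-only, or 34.2% (21.2 to 50.1), and 15 had peaks in both lists, or 39.5% (25.6 to 55.3). Against 26.9%, 41.3% and 31.8% over all genes, each share of the other pathway genes was near the background. The balance moved with the fold required. With peaks of at least the median fold of 2.00 over both lists, 20 of the other genes had a peak, 2 aged-only, 14 young-only and 4 in both. The young-only share was then 70% (48.1 to 85.5). Over all genes at that fold, 26.1% were aged-only, 54.7% young-only and 19.1% in both lists.

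Upstream of cAMP, FSHR was the only one of 8 gonadotropin hormone and receptor genes with a peak, and LHCGR, the luteinizing hormone receptor gene, had none. Of 26 genes for G proteins, their regulators and adenylyl cyclases, 10 had a peak, none aged-only, 6 young-only and 4 in both lists. These are 0% (0 to 27.8), 60% (31.3 to 83.2) and 40% (16.8 to 68.7). The intervals hold the 26.9%, 41.3% and 31.8% of all genes. The adenylyl cyclase genes ADCY2 (fold 3.00), ADCY7 (3.00) and ADCY3 (1.65) were young-only. ADCY5 had folds of 1.5 in the aged and 2.11 in the young list, and ADCY8 1.70 and 1.79. Also young-only were RGS2 (2.19), an inhibitor of Gq signalling, GNA13 (1.57), and GNAS (1.54), the gene of the stimulatory G protein alpha subunit, matched through the deposited symbol to a LOC gene and thus uncertain. GNAQ, whose product couples PTGFR to phospholipase C, had 2 aged and 3 young peaks with highest folds of 2.47 and 3.33. ARRB1, the gene of a beta-arrestin that desensitizes receptors, had 1.73 and 2.14, and its peaks did not overlap.

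Of 16 phosphodiesterase genes 4 had a peak, and PDE4D was the young-only one among them. The aged-only share was 75% (30.1 to 95.4) and the young-only share 25% (4.56 to 69.9), against 26.9% and 41.3% of all genes. PDE4D was picked with the lists known and the group is small, so nothing is read from this split. PDE10A (2.00), PDE7B (1.90) and PDE8A (1.58) were aged-only, and the other 12, PDE4B and PDE4C included, had none. Of 21 genes for protein kinase A subunits, inhibitors, anchors and the cAMP sensor EPAC, 5 had a peak. PRKAR2B was the only kinase subunit gene among them, since PRKAR1A, PRKAR1B, PRKAR2A, PRKACA and PRKACB had none. The remaining 4 were genes of anchoring proteins, AKAP13 (1.71) and AKAP8 (1.55) aged-only, and AKAP12 (2.40) and AKAP9 (1.74) young-only. Of the 5 genes, 40% (11.8 to 76.9) were aged-only, 60% (23.1 to 88.2) young-only and 0% (0 to 43.4) in both lists. The intervals hold the shares over all genes, and PRKAR2B was picked with the lists known.

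Of 29 transcription factor and coactivator genes, 11 were listed, 2 aged-only, 3 young-only and 6 in both. These are 18.2% (5.14 to 47.7), 27.3% (9.75 to 56.6) and 54.5% (28.0 to 78.7), and the intervals hold the shares over all genes. The aged-only genes were CREM (2.00), a cAMP-responsive factor gene, and the acetyltransferase gene EP300 (1.69). Young-only were CEBPB, its relative CEBPD with 2 peaks (highest fold 1.85) and ATF1 (2.17), a relative of CREB1. In both lists, the CREB coactivator gene CRTC3 had folds of 2.58 in the aged and 2.29 in the young list. CREBBP, matched through its symbol to a LOC gene, had highest folds of 3.40 and 2.37. FOSL1 had 2.63 and 2.14, and FOSL2 1.90 and 1.88. CEBPG had 1.56 and 2.00, and NR5A2, a nuclear receptor gene needed for ovulation in mice, had 1.64 and 2.54, and in these 2 genes the aged and young peaks did not overlap. The C/EBP family was thus not uniform, with CEBPB and CEBPD young-only, CEBPG in both lists and CEBPA in neither.

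For progesterone, 5 of 11 genes had a peak. Of these, 20% (3.62 to 62.4) were aged-only, 40% (11.8 to 76.9) young-only and 40% (11.8 to 76.9) in both lists. The intervals hold the shares over all genes, and PGRMC2 was picked with the lists known. PGR, the nuclear progesterone receptor gene, was young-only with a fold of 1.5, the lowest the lists hold, and PGRMC2 was the other young-only gene. The membrane progestin receptor gene PAQR7 (1.5) was aged-only. SERBP1, whose product binds PGRMC1, had highest folds of 1.92 in the aged and 2.90 in the young list. CYB5D2, matched to a LOC gene, had 1.90 and 1.54. PGRMC1 had no peak.

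In prostaglandin metabolism 5 of 16 genes had a peak. Of these, 20% (3.62 to 62.4) were aged-only, 60% (23.1 to 88.2) young-only and 20% (3.62 to 62.4) in both lists. The intervals hold the shares over all genes, and PTGIS was picked with the lists known. PTGES, the inducible prostaglandin E synthase gene, had peaks with identical boundaries in both lists, with a fold of 1.75 and a log10 p of -40.1 in the aged list and 2.62 and -10.6 in the young list. PTGES2 (1.60), another prostaglandin E synthase gene, was aged-only. Young-only were PTGIS, the prostaglandin transporter gene SLCO2A1 (3.43) and CBR1 (2.84), a carbonyl reductase gene matched to a LOC gene. The cyclooxygenase genes PTGS1 and PTGS2 had no peak. Of 10 receptor genes, PTGFR was young-only and PTGFRN (1.67), which encodes a negative regulator of that receptor, aged-only, and the 4 prostaglandin E receptor genes had none. Of 12 genes for EGF-like signals and the cumulus matrix, PTX3 and VCAN had peaks in both lists, PTX3 with folds of 1.56 in the aged and 2.04 in the young list and VCAN with 1.91 and 1.81. The receptor and the cumulus matrix groups had 2 genes with a peak each, and nothing is read from their split.

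**Figure D4:**
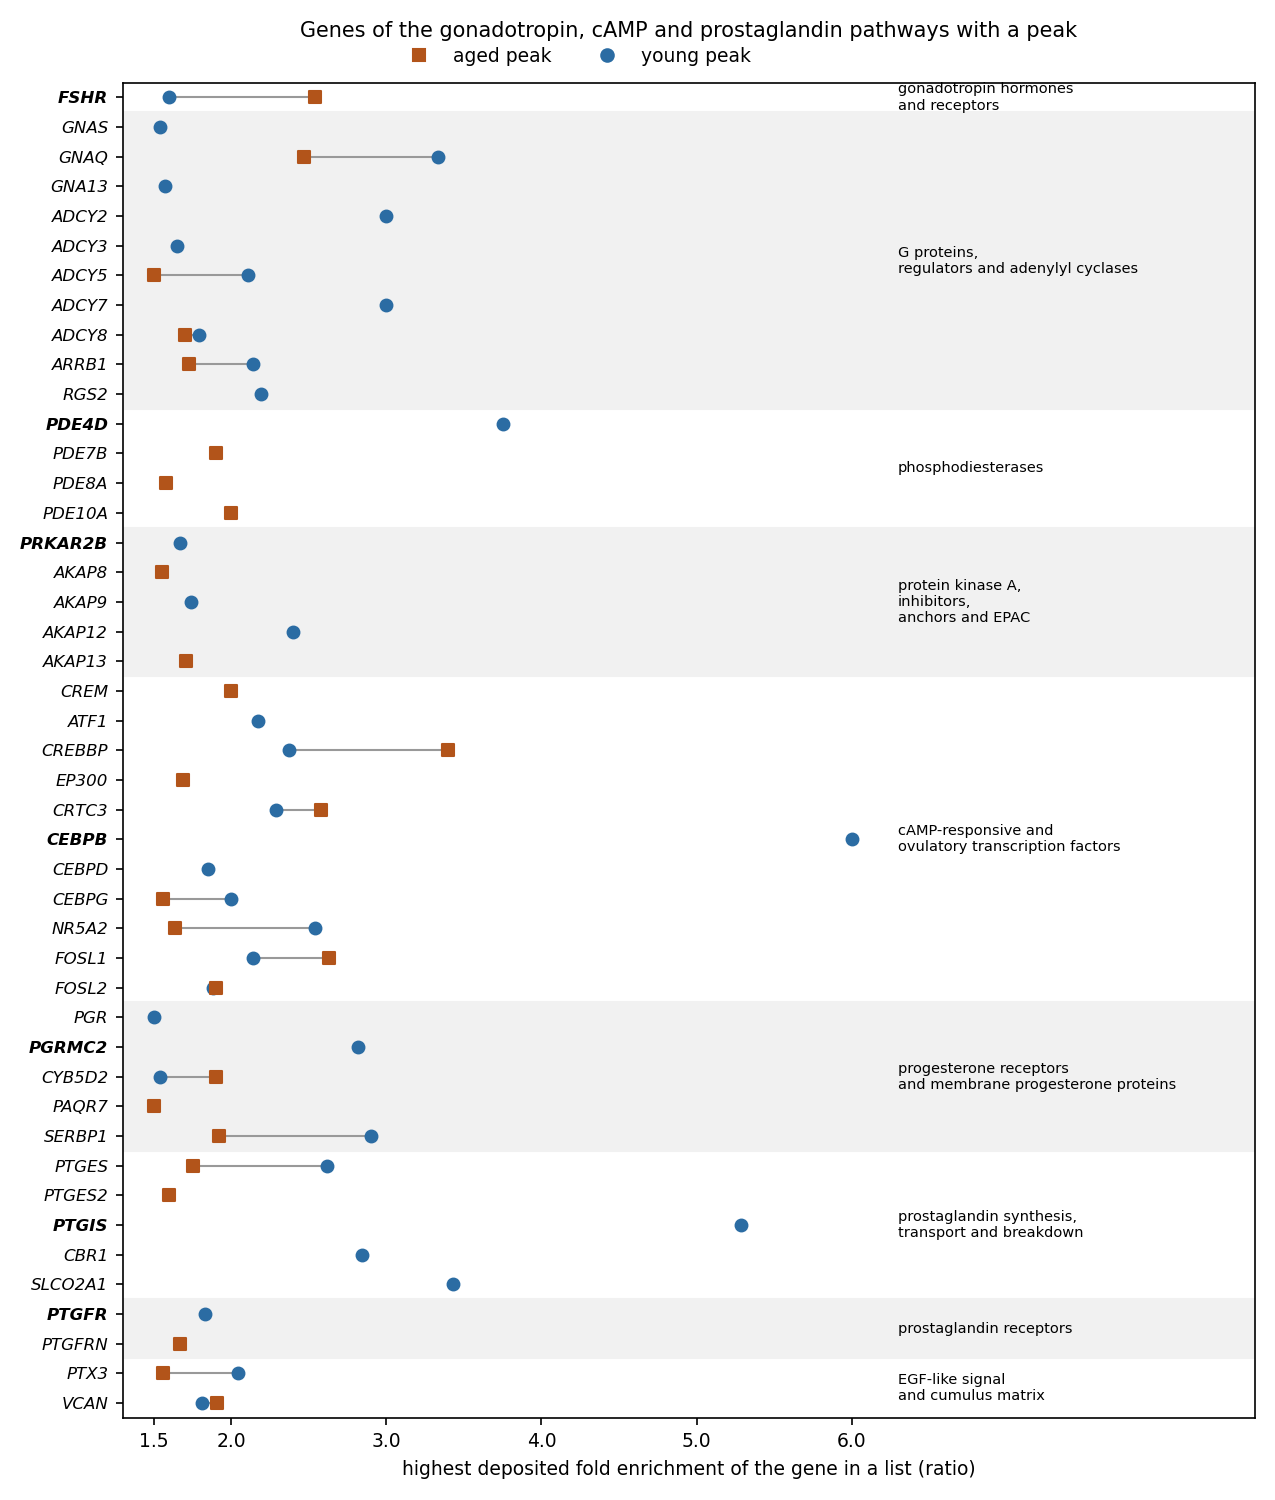
Rows are the 45 genes of the fixed pathway list with a peak, grouped by role, with the 7 members in bold. Squares give the highest deposited fold of the gene in the aged list and circles that in the young list, joined where both exist. FSHR stands at 2.54 in the aged and 1.60 in the young list. Of the 4 phosphodiesterase genes with a peak, PDE4D, picked with the lists known, is young-only.

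The deposited annotation gave a second view of the same pathways, with gene sets made by others. FSHR and PDE4D carry the term cAMP signaling pathway, which 54 listed genes share, 17 of them aged-only, 20 young-only and 17 in both lists. The young-only share of 37.0% (25.4 to 50.4) was near the 41.3% of all genes. The aged-only gene of that term with the highest fold was BVES (4.67), which encodes a cAMP-binding membrane protein. The leading young-only ones were the neuropeptide Y receptor gene NPY1R (4.00) and VAV2 (3.90), followed by PDE4D. BVES, NPY1R and VAV2 were named after their values were seen. Ovarian steroidogenesis, a term of FSHR, had 4 aged-only, 8 young-only and 8 shared genes by deposited name. Its young-only share was 40% (21.9 to 61.3). The counts of this term hold CYP17 (2.22) as aged-only and CYP17A1 (1.56) as young-only, although both names are used for the same enzyme gene. The split of this term is therefore uncertain for that gene. Arachidonic acid metabolism, the term of PTGIS, had 3 aged-only, 7 young-only and 7 shared genes, with PTGIS the highest fold among them. Its young-only share was 41.2% (21.6 to 64), near that of all genes. Neuroactive ligand-receptor interaction, which holds FSHR, PGRMC2 and PTGFR, had 9 aged-only, 18 young-only and 9 shared genes, a young-only share of 50% (34.5 to 65.5).

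**Figure D5:**
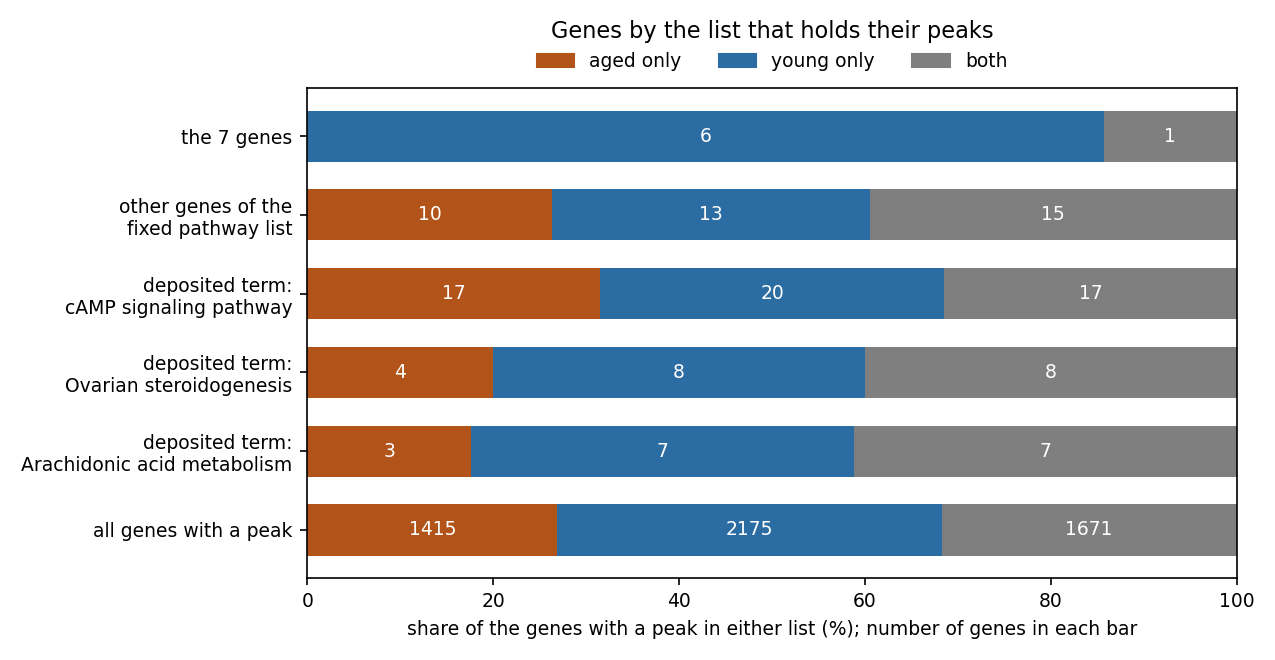
Bars give the share of genes with a peak in the aged list only, the young list only or both, out of those with a peak in either list, with the number of genes written in each part. The 7 genes, chosen with the lists known, are 6 young-only and 1 in both, while the 38 other pathway genes (10, 13 and 15) lie near all 5261 genes (1415, 2175 and 1671). Genes of the deposited terms are counted by deposited name, so CYP17 and CYP17A1 count separately under Ovarian steroidogenesis.

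The genes most like each member were those of the same class and label whose peak lay at the nearest percentiles of fold and log10 p in the same list or lists. For FSHR these were ERMARD, with folds of 2.52 in the aged and 1.87 in the young list, and TBC1D1, with 2.13 and 1.75, at distances of 26.2 and 26.8 percentile points among 221 candidates. LOC genes were not among the candidates. The young-only members were each compared with 863 candidates. CEBPB was nearest to STEEP1 (6.33) and DYNLL2 (6.50), PDE4D to PIK3AP1 (3.80) and TRPV2 (3.67), and PTGFR to MYL9 and KCNN4 (1.83 each). PGRMC2 was nearest to GTPBP3 (2.75) and COPZ1 (3.00), PRKAR2B to ENTPD7 and DTD2 (1.67 each), and PTGIS to KDM4B (3.50) and THNSL1 (4.00). The likeness is over 1 list for these genes and 2 lists for FSHR.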

How the data were processed

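RNA of ovarian tissue was made into stranded total RNA libraries and sequenced on an Illumina instrument, per the labels' protocols. The submitters' processing notes name ChIPseeker and DESeq2 without a role. No source used here names the aligner, the peak caller or the genome build. Per the file headers, the authors deposited for each peak a p-value, an adjusted p-value, their log10 (treated as a score), a fold enrichment (a linear ratio) and a width, which is counted in bases. The lowest deposited fold was 1.5. The files count starts from 0, and 1 base was added to each. Chromosome numbers, gene ends and lengths came from a table of assembly ARS-UI_Ramb_v3.0, whose gene identifiers covered 99.5% of aged and of young peaks. Because the files name no build, coordinates of the table are not printed, and distances to gene ends rest on their agreement to the base on 27 chromosomes.

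The young sample is numbered replicate 1 and the aged sample replicate 2. Peaks overlapped with at least 1 shared base on the same strand. Percentiles give the share of weaker peaks within a list, with ties at mid-rank. Pathway genes were matched by deposited gene name or symbol, 4 of them to LOC genes. The 7 genes and the lists were chosen with earlier results of these data known. Named were all members, every listed pathway gene with a peak, and the 2 genes most like each member, not LOC genes. Alternatives were stricter folds or adjusted p, equal list lengths, exon and UTR labels only, other overlap and rank rules, and, chosen after seeing the data, matching by name only. The overlap code was tested on simulated data. No sequence was read. Tables were computed with numpy 2.4.6 and pandas 2.3.3 in Python 3.11.15, intervals with scipy 1.17.1 and figures with matplotlib 3.10.9.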

Additional observations from a re-analysis of the deposited data

How the results depend on the processing

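The count of 6 young-only members was also 6 at an adjusted p of at most 0.05 or 0.01. It stayed at 6 at equal list lengths by fold, and with exon and UTR labels only. With folds of at least 2.00 it was 4, since PTGFR and PRKAR2B fell out. At equal list lengths by p it was 3, without CEBPB, PTGFR and PRKAR2B. The members were picked with the lists known, so a count that stays at 6 describes the choice and nothing is read from it. Over all genes the young-only share was 41.3% with every peak and 54.7% with folds of at least 2.00. It was 37.1% at equal list lengths by fold. With exon and UTR labels only it was 32.4%, below the aged-only share of 41.3%. With folds of at least 2.00, and at equal list lengths by fold, the young FSHR peak was lost, which gave 1 aged-only and 0 shared members. With exon and UTR labels only, 0 members were shared because both FSHR peaks are labelled stop codon. With folds of at least 2.00 the 149 pathway genes, members included, gave 3 aged-only, 18 young-only and 4 shared genes, against 10, 19 and 16 with every peak. Their counts were within 1.5 times these values under the other alternatives, as when matched by name only (10, 17 and 14). At equal list lengths by p the 149 genes gave 14 aged-only and 14 young-only genes. Without the 7, aged-only genes were then the more frequent, 14 against 11 young-only. The same held at equal list lengths by fold (11 against 9) and with exon and UTR labels only (10 against 9). Over all genes, aged-only and young-only shares were 32.8% and 37.4%, 33.5% and 37.1%, and 41.3% and 32.4% in these settings. A young-only lead thus depended on the setting. The FSHR peaks overlapped by at least 50% of both, as did peaks of 1015 (60.7%) of the 1671 genes with peaks in both lists. Ranked by log10 p in place of fold, all 8 member peaks changed percentile, most for CEBPB, which stood at 13.5 by log10 p and 99.8 by fold. Overlap over exonic blocks was not run, as the files give none, but the 8 peaks span no intron. No paired analysis was possible because there is 1 list per age and the ages share no replicate number. Depth is not given, so a missing aged peak may be a peak below the deposited limits.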

Other observations

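PTGIS and CEBPB, the members with the highest young folds, are near each other on chromosome 13, with their peaks 640.7 kb apart and on opposite strands. Of the 12 protein-coding genes that run from one to the other in the table, 3 had a peak: PTGIS, CEBPB and, between them, the ubiquitin-conjugating enzyme variant gene UBE2V1, which was aged-only with a fold of 2.36. SNAI1, B4GALT5 and RNF114, which also lie between them, had no peak in either list. These neighbours were looked up after the values were seen.

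The deposited terms of PRKAR2B and CEBPB pointed to other processes. Insulin signaling pathway, the only term of PRKAR2B, had 21 aged-only, 11 young-only and 21 shared genes. Its young-only share of 20.8% (12.0 to 33.5) was below the 41.3% of all genes, so PRKAR2B belonged to the less frequent class of its own term. IL-17 signaling pathway, a term of CEBPB, had 4 aged-only, 11 young-only and 5 shared genes, a young-only share of 55% (34.2 to 74.2). TNF signaling pathway, also a term of CEBPB, had 12 aged-only, 13 young-only and 10 shared genes, a young-only share of 37.1% (23.2 to 53.7). These terms were chosen after the lists were seen, and the shares are descriptions of 1 list per age.

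Among the 15 pathway genes other than FSHR with peaks in both lists, the peaks overlapped in 12 and lay apart in 3, which were ARRB1, CEBPG and NR5A2. Of all 1671 genes with peaks in both lists, 84.1% had overlapping ones. The aged and young PTX3 peaks met in 1 base.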
